A study of Mus musculus with 8 samples.

Results

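Hepatic nuclear receptor genes were followed across the 4 liver groups of the series. The 10 names searched were the liver X receptors Nr1h3 (LXRα) and Nr1h2 (LXRβ), their partners Rxra and Rxrb, the bile acid receptor Nr1h4 (FXR), Nr0b2 (SHP), Nr5a2 (LRH-1), Hnf4a, Ppara and the corepressor Ncor1, which is not itself a nuclear receptor. The members were every probe set whose gene symbol was one of these 10 names. This gave 15 probe sets of 8 genes, among 22626 probe sets and 12393 genes in all, and Nr1h2 and Ncor1 were not analysed here. Of the 15 probe sets, 14 passed the filter on dim probe sets, and the exception was 1449707_at of Nr5a2, whose intensity lay between 8.77 and 10.3 on all 8 arrays.

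Each array held liver RNA of 1 mouse. All mice were null for the LDL receptor on C57B6, had received an adeno-associated virus (AAV2.8) at 10 weeks of age, had eaten Western diet for 12 weeks and were 8 months old. The virus carried human LXRα or, as the control, GFP, driven by the human promoter of thyroxine binding globulin, which is active in hepatocytes and not in the other cells of the liver. Mice then had 3 days of T0901317 at 5 mg/kg or of vehicle, given intraperitoneally. T0901317 is a synthetic agonist of both LXRs and is known to activate PXR as well. The groups, with 2 arrays each, were LXRα T0901317, LXRα vehicle, GFP T0901317 and GFP vehicle. Nothing in the labels says which mice shared a litter or a day, so p-values measure the spread between these arrays.

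Nuclear receptors are transcription factors whose activity is set by small lipophilic ligands. LXRα and LXRβ bind oxysterols, pair with RXR and induce genes of sterol efflux, lipogenesis and, in mouse liver, bile acid synthesis. FXR senses bile acids and induces SHP, which has no DNA-binding domain and represses LRH-1 and HNF4α, 2 activators of the bile acid enzyme genes Cyp7a1 and Cyp8b1. PPARα binds fatty acids and induces their oxidation, and NCoR1 represses genes on receptors that lack an agonist. RNA level measures the amount of receptor message and not the activity of the protein.

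These receptors bind repeats or single copies of the hexamer AGGTCA. LRH-1 binds an extended single site, searched here as CAAGGTCA or CAAGGCCA. The RefSeq sequences of the 250 bases before an annotated start (GRCm38.p6) are shown for 3 members: Nr0b2, the member with the smallest p after T0901317, Nr5a2, the source of LRH-1, and Rxra, the one with AGGTCA on both strands. Capitals mark CAAGGCCA in Nr0b2 and AGGTCA, or its reverse complement, in the other two.
Nr0b2 chr4:133553126-133553375 plus strand: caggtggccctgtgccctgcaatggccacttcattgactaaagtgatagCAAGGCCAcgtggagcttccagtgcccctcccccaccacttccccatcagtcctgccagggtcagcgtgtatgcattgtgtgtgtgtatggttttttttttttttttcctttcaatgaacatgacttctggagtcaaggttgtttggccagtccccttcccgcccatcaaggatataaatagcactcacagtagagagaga
Nr5a2 chr1:136960449-136960698 minus strand: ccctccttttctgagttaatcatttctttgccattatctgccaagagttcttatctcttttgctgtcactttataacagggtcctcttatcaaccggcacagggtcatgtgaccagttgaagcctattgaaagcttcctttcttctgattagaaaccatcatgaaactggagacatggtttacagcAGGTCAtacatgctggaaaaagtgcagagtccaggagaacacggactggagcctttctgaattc
Rxra chr2:27709042-27709291 plus strand: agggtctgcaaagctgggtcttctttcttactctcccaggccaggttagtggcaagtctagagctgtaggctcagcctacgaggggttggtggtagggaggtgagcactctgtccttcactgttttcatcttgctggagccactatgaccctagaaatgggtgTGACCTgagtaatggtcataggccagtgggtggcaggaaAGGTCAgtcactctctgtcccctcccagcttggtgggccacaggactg
The Nr0b2 match lay 201 to 194 bases before the start, and the E-box letters CACGTG overlapped its last 2 bases. In Nr5a2 the hexamer lay 64 to 59 bases before the start. The second annotated start of Rxra had it 87 to 82 bases before the start on the opposite strand and 48 to 43 on the same strand. All 10 genes had an entry, with 16 starts. On either strand, AGGTCA was found at 3 of the 16 starts (Nr1h4, Nr5a2 and Rxra), against 14% of all 32851 promoters of that length. CAAGGTCA or CAAGGCCA was found at 1 of the 16, against 3.28% of all promoters, and CACGTG also at 1, against 6.02%. The spaced repeats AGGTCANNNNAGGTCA (DR4, the LXR and RXR spacing), AGGTCANAGGTCA (DR1) and AGGTCANTGACCT (IR1) were found at none of the 16, and at 0.0152%, 0.0335% and 0.00609% of all promoters.

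The livers expressed hepatocyte markers on every array: the summed intensity of 10 measured markers lay between 106504 and 140138. The ratio of 3' to 5' signal of the β-actin control is higher where the 5' part of transcripts is lost. On 3 of the 4 T0901317 arrays this ratio was above all vehicle arrays. It was 2.75 and 36.3 on the LXRα T0901317 arrays, 2.61 and 3.08 on the LXRα vehicle arrays, 7.56 and 11.04 on the GFP T0901317 arrays and 2.21 and 2.08 on the GFP vehicle arrays. Gapdh gave 1.27 to 19.7 on T0901317 arrays and 1.06 to 1.16 on vehicle arrays. The 18S control gave 13.4 to 76.3 with T0901317 and 262 to 513 with vehicle. Exact two-sided permutation tests over the 70 splits gave p = 0.0286 for Gapdh and 18S, the smallest they can give, and p = 0.0571 for β-actin. LXRα T0901317 replicate 1 had the ratio nearest to vehicle and is called the lower-ratio T0901317 array. The quality signs accompany every T0901317 difference below, and values from the lower-ratio array are given where they bear on a member.

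No member passed the test in any comparison. With T0901317 against vehicle, averaged over both transgenes, limma called 0 of the 14 member probe sets at an adjusted p under 0.05, against 0.568% of all 15838 probe sets (90, of which 68 higher and 22 lower). At an unadjusted p under 0.05 there were 7 member probe sets, against 23.2% of all. These were 6 lower, against 10.5% of all, and 1 higher, against 12.7% of all. The lower ones were both probe sets of Rxra, 1421983_s_at and 1450447_at of Hnf4a, and those of Nr1h3 and Nr0b2. Probe sets of 1 gene are thus counted separately, here and in the next count. The 4 T0901317 arrays lay below the 4 vehicle arrays for 4 of the 14 probe sets, against 8.44% of all, and above them for 1, against 8.21% of all. The median log2 difference was -0.13 over the 14 probe sets and -0.04 over all. Without LXRα T0901317 replicate 1, 5 of the 14 were called, all lower, and 1506 of all probe sets. Without LXRα vehicle replicate 2, 0 probe sets of any gene were called.

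**Figure D1:**
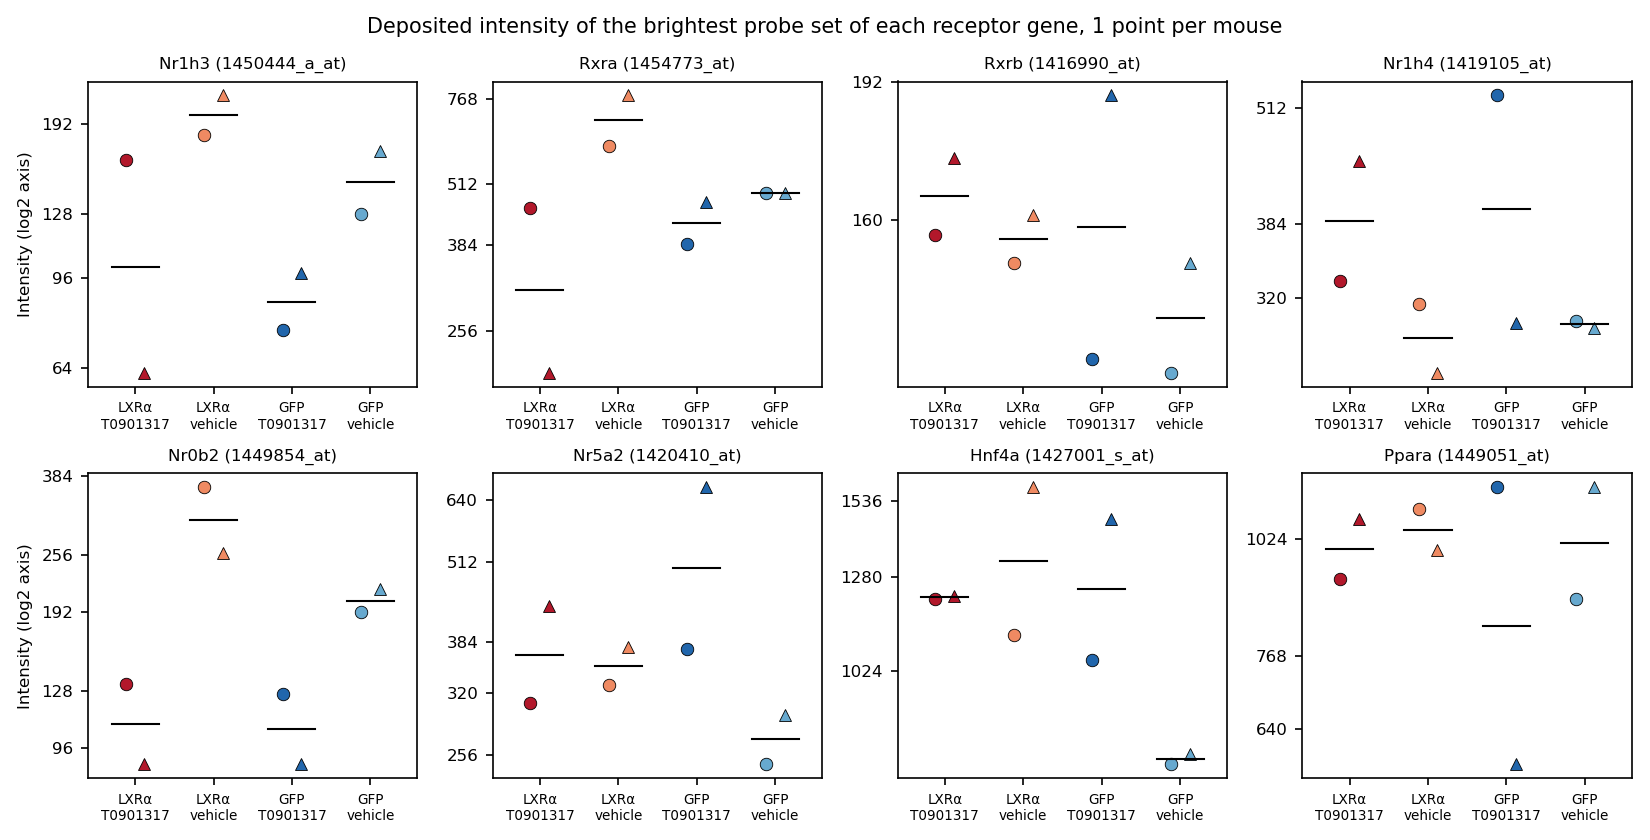
Deposited intensity (log2 axis, with its own range in each panel) of the brightest probe set of 8 receptor genes in LXRα T0901317, LXRα vehicle, GFP T0901317 and GFP vehicle livers, with a circle for replicate 1, a triangle for replicate 2 and a line at the geometric mean of the 2 mice. Nr0b2 lies between 88.1 and 133 in the T0901317 livers and between 191 and 363 in the vehicle livers, while Rxrb and Ppara overlap between treatments.

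Nr1h3, the gene of LXRα, was measured by 1 probe set, 1450444_a_at. Its intensity was 163 and 62.6 with LXRα T0901317, 183 and 218 with LXRα vehicle, 75.8 and 98.0 with GFP T0901317, and 128 and 170.0 with GFP vehicle. Within each transgene both T0901317 livers lay below both vehicle livers. Across transgenes the treatments overlapped, as the lower-ratio LXRα T0901317 liver, at 163, lay within the GFP vehicle range. The T0901317 difference averaged over transgenes was -0.88 on the log2 scale (SE 0.32, limma adjusted p = 0.179). Within the LXRα livers it was -0.98 (SE 0.45, adjusted p = 0.397), and with the lower-ratio array as the only T0901317 liver it was -0.29 (SE 0.29, adjusted p = 0.581). With the β-actin ratio added to the fit the averaged difference was -0.20. Without LXRα T0901317 replicate 1 it was -1.22 (limma adjusted p = 0.0245) and without LXRα T0901317 replicate 2 it was -0.53 (0.15). Without any of the other 6 arrays the limma adjusted p lay between 0.238 and 0.368. Because the human transgene RNA may or may not bind this mouse probe set, the values are no check of the labels.

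Rxra, the main hepatic partner of LXR, FXR and PPARα, showed lower values with T0901317 on both of its probe sets. The brighter one, 1454773_at, gave 458 and 209 in LXRα T0901317 livers, 615 and 781 with LXRα vehicle, 386 and 470.1 with GFP T0901317 and 492 on both GFP vehicle arrays. The 4 T0901317 values were below all 4 vehicle values, with an averaged difference of -0.69 (SE 0.27, limma adjusted p = 0.2). The other, 1425762_a_at, gave 19.99 and 29.2 in LXRα T0901317 livers, 33.5 and 57.6 with LXRα vehicle, 26.6 and 23.2 with GFP T0901317 and 42.2 and 48.9 with GFP vehicle. Its groups did not overlap either, with a difference of -0.87 (SE 0.22, limma adjusted p = 0.101). That difference was the same size in LXRα livers (-0.86) and in GFP livers (-0.87). Over 9 alternatives to the processing, the β-actin covariate among them, it ranged between -1.16 and -0.59. With single arrays left out it ranged between -1.06 and -0.67. The brighter probe set differed by -1.16 (SE 0.38) in LXRα livers and -0.21 (SE 0.38) in GFP livers, with an interaction of -0.95 (SE 0.54, adjusted p = 1). On the lower-ratio array alone its difference from LXRα vehicle was -0.60. With the β-actin ratio added to the fit its averaged difference was -0.14, without LXRα T0901317 replicate 1 it was -0.97 (limma adjusted p = 0.0323) and without LXRα T0901317 replicate 2 it was -0.40 (0.197). Without any of the other 6 arrays the limma adjusted p lay between 0.258 and 0.401.

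Rxrb, the second RXR gene, had 157 and 174 in LXRα T0901317 livers, 151 and 161 with LXRα vehicle, 133 and 189 with GFP T0901317 and 131 and 151 with GFP vehicle. The treatments overlapped. The averaged difference was 0.13, with an unadjusted 95% interval of -0.28 to 0.54 (limma adjusted p = 0.647), and -0.01 after quantile normalization.

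Among the genes of the bile acid branch, the repressor Nr0b2 had the smallest adjusted p of the 14 member probe sets. Its intensity was 133 and 88.1 in LXRα T0901317 livers, 363 and 259 with LXRα vehicle, 127 and 88.3 with GFP T0901317 and 191 and 215 with GFP vehicle. Every T0901317 liver lay below every vehicle liver, with both LXRα vehicle livers highest. The mean log2 intensity was 6.74 ± 0.32 with T0901317 and 7.96 ± 0.40 with vehicle (SD, n = 4 each). The averaged difference was -1.22 (SE 0.22, a 2.33-fold lower level, unadjusted p = 0.000989) and missed the threshold (limma adjusted p = 0.069). Over 9 alternatives to the processing it ranged between -1.34 and -0.86, with limma adjusted p between 0.056 and 0.135, and the smallest size came with the β-actin ratio in the fit. With single arrays left out it ranged between -1.37 and -1.07, with limma adjusted p = 0.0251 without LXRα T0901317 replicate 1 and between 0.104 and 0.191 without any other array.

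The difference of Nr0b2 was -1.50 in LXRα livers (SE 0.32, limma adjusted p = 0.176) and -0.94 in GFP livers (SE 0.32, adjusted p = 0.301). On the lower-ratio array alone it was -1.21 (SE 0.30, adjusted p = 0.153). That array still differed from the vehicle arrays in Gapdh ratio (1.27 against at most 1.16) and 18S signal (76.3 against at least 262), and the part of RNA quality in the difference was not tested. The 2 transgenes with T0901317 differed by 0.03 (SE 0.32, 95% interval -0.72 to 0.79), and the interaction was -0.56 (SE 0.45, adjusted p = 1). In liver RNA, fewer cells of a type and less RNA per cell cannot be told apart.

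Nr1h4, the gene of FXR, which induces Nr0b2, had 333 and 449 in LXRα T0901317 livers, 315 and 266 with LXRα vehicle, 529 and 300.5 with GFP T0901317 and 302 and 297 with GFP vehicle. Its averaged difference was 0.42 (SE 0.23, limma adjusted p = 0.287), and the highest and lowest T0901317 values both came from the GFP group. Without GFP T0901317 replicate 1 the averaged difference was 0.21.

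Nr5a2, the gene of LRH-1, was brightest on 1420410_at. That probe set gave 309 and 437 in LXRα T0901317 livers, 329 and 377 with LXRα vehicle, 375 and 672 with GFP T0901317 and 248 and 296 with GFP vehicle. Its T0901317 difference was 0.89 in GFP livers (SE 0.34, limma adjusted p = 0.342) and 0.06 in LXRα livers (SE 0.34, adjusted p = 0.943), with an interaction of -0.83 (SE 0.48, adjusted p = 1). In LXRα livers the sign turned with the lower-ratio array alone (-0.19). A second probe set, 1456521_at, had 109 and 115 in LXRα T0901317 livers, 95.9 and 81.5 with LXRα vehicle, 106 and 176 with GFP T0901317 and 52.4 and 82.6 with GFP vehicle. It was the 1 member probe set whose T0901317 arrays all lay above the vehicle arrays (0.70, SE 0.23, adjusted p = 0.162). The third, 1449706_s_at, overlapped when averaged (0.10, SE 0.14, limma adjusted p = 0.655). Its signs were opposite, at 0.41 (SE 0.20) in GFP livers and -0.20 (SE 0.20) in LXRα livers. The interaction was -0.61 (SE 0.29) and did not pass.

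The targets of this branch split. Cyp7a1, which catalyses the first and limiting step from cholesterol to bile acids, rose to 412 and 671 in LXRα T0901317 and 713 and 543 in GFP T0901317 livers, against 219.6 and 232 in LXRα vehicle and 77.8 and 68.2 in GFP vehicle livers. The averaged log2 difference was 2.16 (SE 0.21, limma adjusted p = 0.025), and on these values the rise was larger in GFP than in LXRα livers. Cyp8b1, the sterol 12α-hydroxylase that makes cholic acid, fell to 75.4 and 139.7 in LXRα T0901317 and 164 and 111 in GFP T0901317 livers, against 551 and 385 in LXRα vehicle and 472 and 406 in GFP vehicle livers. Its averaged difference was -1.93 (SE 0.27, limma adjusted p = 0.048). SHP is known to repress both genes, and both were on the list of FXR and SHP targets, of which 21 genes were tested. Of these, 1 rose and 1 fell, where 0.568% of all probe sets were called, 7 were higher and 14 lower in all, Nr0b2 itself among them, and the median was -0.11, against -0.01 over 9359 genes. By transgene, 4 were higher and 17 lower in LXRα livers (median -0.35), and 14 were higher and 7 lower in GFP livers (median 0.29). The uptake carrier Slco1b2 (-1.08, SE 0.16, adjusted p = 0.0502) and the phospholipid transfer protein Pltp (1.10, SE 0.22, adjusted p = 0.0762) did not pass. The organic anion carrier Slc22a7 had opposite signs, at -4.60 (SE 0.61, adjusted p = 0.092) in LXRα livers and 0.78 (SE 0.61, adjusted p = 0.558) in GFP livers, with an average of -1.91 (adjusted p = 0.0893) and an interaction of -5.38 (SE 0.86, adjusted p = 0.755).

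The 2 calls were close to the threshold. With the β-actin ratio in the fit Cyp7a1 was at 1.82 and Cyp8b1 at -2.33, with limma adjusted p = 0.114 for each. Both calls were lost without any one of GFP vehicle replicate 2, either GFP T0901317 array or either LXRα vehicle array (limma adjusted p between 0.0782 and 0.181), and that of Cyp8b1 also without GFP vehicle replicate 1 (0.113) or LXRα T0901317 replicate 2 (0.0605).

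**Figure D2:**
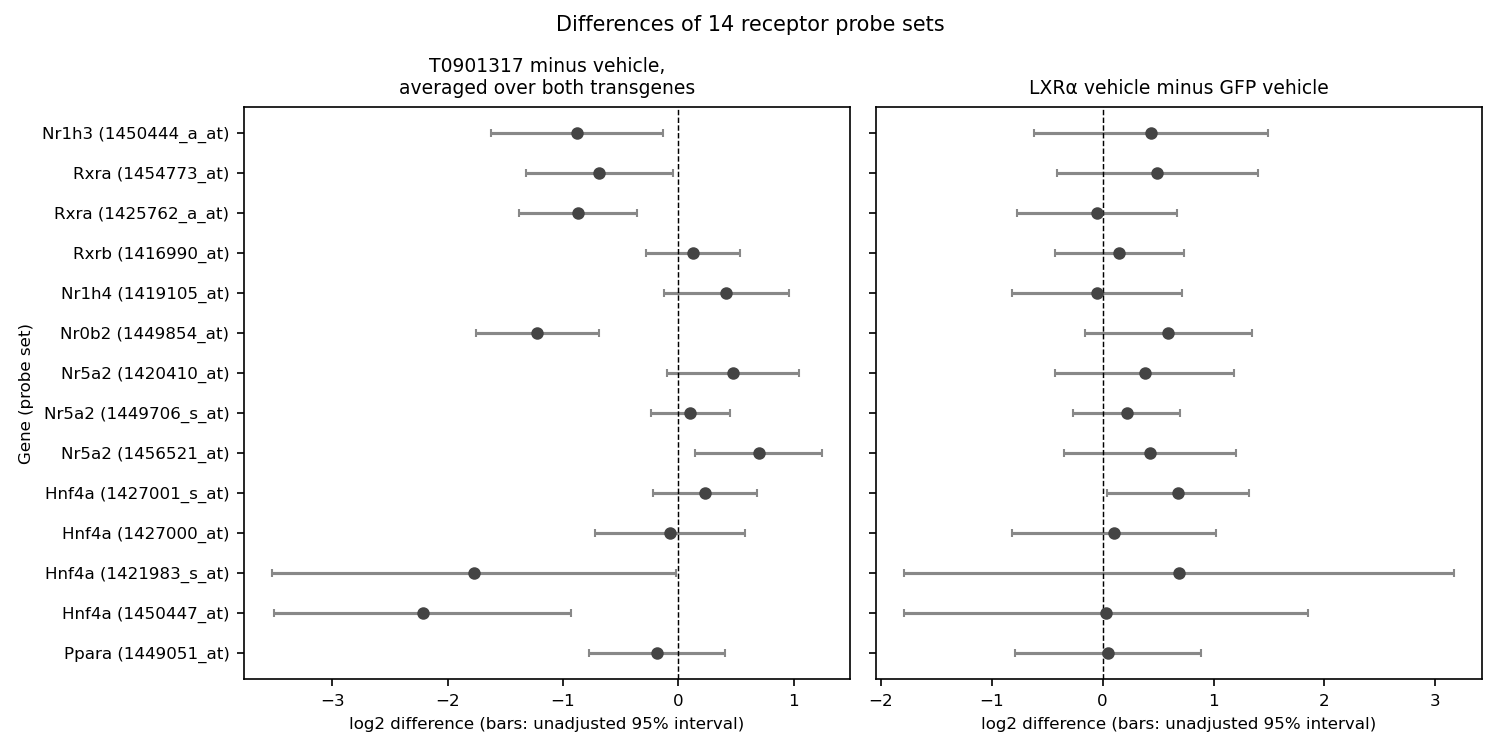
Log2 differences (points) with unadjusted 95% intervals (bars) of 14 receptor probe sets for T0901317 minus vehicle averaged over both transgenes (left) and LXRα vehicle minus GFP vehicle (right). Nr0b2 at -1.22 has the smallest adjusted p on the left (0.069), the intervals of the 2 dimmer Hnf4a probe sets are the widest in both panels, and no probe set passed in either.

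Hnf4a, which maintains the hepatocyte program, gave differing estimates on its 4 probe sets, none of which passed. The brightest, 1427001_s_at, had 1217 and 1223 in LXRα T0901317 livers, 1115 and 1588 with LXRα vehicle, 1051 and 1473 with GFP T0901317 and 819 and 840.0 with GFP vehicle. Only the GFP vehicle pair stood apart, at the low end, and the averaged T0901317 difference was 0.23 (SE 0.19, limma adjusted p = 0.454). The second, 1427000_at, lay between 353 and 613 with T0901317 and between 418 and 720.2 with vehicle (-0.07, SE 0.27, adjusted p = 0.874).

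The other 2 were lower with T0901317. On 1421983_s_at the intensity was 393 and 34.8 in LXRα T0901317 livers, 339 and 869 with LXRα vehicle, 168 and 106 with GFP T0901317 and 389 and 291 with GFP vehicle. The lower-ratio array, at 393, lay within the vehicle range, and the array with the highest β-actin ratio was the lowest. On 1450447_at the intensity was 101 and 35.3 in LXRα T0901317 livers, 130 and 267 with LXRα vehicle, 12.8 and 53.8 with GFP T0901317 and 194 and 170.3 with GFP vehicle, with no overlap between treatments. The averaged differences were -1.77 (SE 0.74, limma adjusted p = 0.213) and -2.22 (SE 0.54, limma adjusted p = 0.1). With the β-actin ratio in the fit they were 0.02 and -1.63, and without LXRα T0901317 replicate 1 they were -2.65 and -2.60 (limma adjusted p = 0.0215 and 0.049). Without LXRα T0901317 replicate 2 they were -0.90 and -1.84 (limma adjusted p = 0.2 and 0.119). Without any of the other 6 arrays the limma adjusted p lay between 0.267 and 0.4 for 1421983_s_at and between 0.13 and 0.256 for 1450447_at.

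Within an array, the log2 ratio of a probe set to the brightest of its gene shows whether the probe sets changed unequally. For 1450447_at of Hnf4a this ratio was -4.96 ± 1.14 with T0901317 and -2.51 ± 0.44 with vehicle (SD, n = 4 each), a difference of -2.45 (exact two-sided permutation p = 0.0286, the smallest possible, and 0.171 adjusted over 6 pairs). For 1421983_s_at the difference was -2.003 (exact p = 0.0571, 0.171 adjusted). The other 4 pairs, of Hnf4a, Rxra and Nr5a2, differed by -0.37 to 0.22 (exact p between 0.143 and 0.686). This comparison was chosen after the values were seen. The direction given for Hnf4a with T0901317 therefore depends on the probe set, and the part of the 3'/5' signs in that was not tested.

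**Figure D3:**
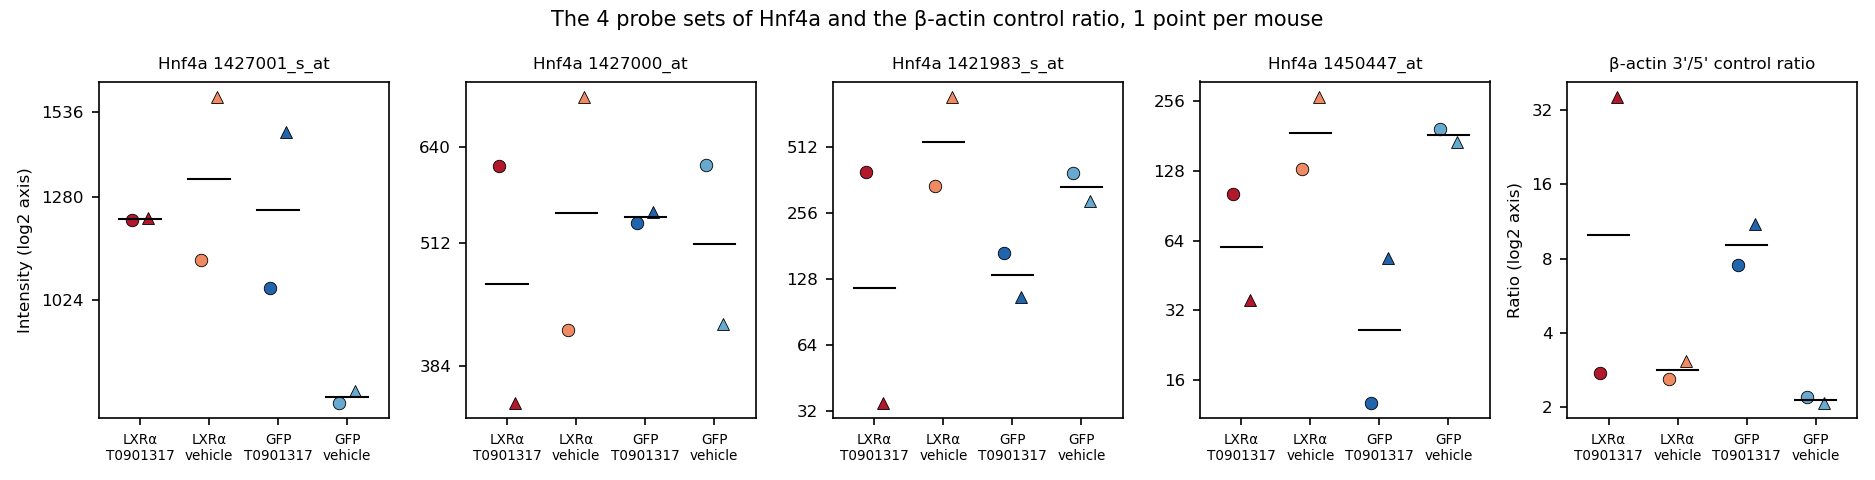
Intensity of the 4 Hnf4a probe sets and the β-actin 3'/5' control ratio (log2 axes, each with its own range) in LXRα T0901317, LXRα vehicle, GFP T0901317 and GFP vehicle livers, with symbols as in the plot of receptor intensities. The 2 probe sets on the left overlap between treatments, 1421983_s_at reaches 34.8 on the array whose β-actin ratio is 36.3, and 1450447_at is lower on all 4 T0901317 arrays.

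HNF4α target genes did not share 1 direction. Of 20 tested, 9 were higher and 11 lower with T0901317 (median -0.07), 0 rose and 2 fell, where 0.568% of all probe sets were called. Those that fell were Cyp8b1, given above, and Gjb1, the gap junction protein connexin 32. Gjb1 had 559.6 and 499 in LXRα T0901317 and 423 and 504 in GFP T0901317 livers, against 1086 and 1123 in LXRα vehicle and 929 and 903 in GFP vehicle livers (-1.03, SE 0.15, limma adjusted p = 0.0491). Without any one of 7 arrays its limma adjusted p lay between 0.0882 and 0.191, and it was 0.0196 without LXRα T0901317 replicate 1. It was 0.114 with the β-actin ratio in the fit. The tyrosine aminotransferase Tat (-0.79, adjusted p = 0.309, from -1.66 in LXRα and 0.09 in GFP livers), the gluconeogenic enzyme Pck1 (-0.79, adjusted p = 0.194), the apolipoprotein Apoa4 (-0.59, adjusted p = 0.496) and the coagulation factor F10 (-0.52, adjusted p = 0.222) did not pass.

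Ppara, the fatty acid receptor, had 928 and 1076 in LXRα T0901317 livers, 1103 and 997 with LXRα vehicle, 1166 and 587 with GFP T0901317 and 884 and 1166 with GFP vehicle. One array, GFP T0901317 replicate 2, was low, and the groups otherwise overlapped. The averaged difference was -0.18, with a 95% interval of -0.77 to 0.41 (limma adjusted p = 0.651), and it was 0.07 without that array. Its targets had a median of 0.11, with 13 of 23 higher and 0 called. In LXRα livers 19 were higher and 4 lower (median 0.25), and in GFP livers 9 were higher and 14 lower (median -0.13). The largest averaged differences were those of Cyp4a14 (2.95, SE 0.80, adjusted p = 0.116), Acot1 (2.02, SE 0.75), Ehhadh (1.95, SE 0.42, adjusted p = 0.0824) and Pdk4 (1.75, SE 0.46), which encode enzymes and a kinase of fatty acid handling. Cyp4a14 was at 5.06 (SE 1.13) in LXRα livers and 0.83 (SE 1.13) in GFP livers, with an interaction of 4.23 (SE 1.60, adjusted p = 1). Ehhadh had 9273 and 4121 in LXRα T0901317 and 4182 and 2548 in GFP T0901317 livers, against 1366 and 451 in LXRα vehicle and 1653 and 1780.0 in GFP vehicle livers, without overlap between treatments.

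LXR targets were mostly higher, on a list that, like the others here, was chosen with earlier results of these data known. Of 19 tested, 18 were higher with T0901317 and 2 rose, Cyp7a1 and Rnf145, where 0.568% of all probe sets were called, with a median of 0.87 against -0.01 over all genes. Rnf145, a ubiquitin ligase of the endoplasmic reticulum, rose to 482 and 386 in LXRα T0901317 and 297 and 357 in GFP T0901317 livers, against 94.1 and 79.4 in LXRα vehicle and 107 and 94.2 in GFP vehicle livers (2.01, SE 0.17, limma adjusted p = 0.0206). Its limma adjusted p was 0.114 with the β-actin ratio in the fit and 0.0688 to 0.168 without any one of the 5 arrays named for Cyp7a1. Fasn (1.67, adjusted p = 0.0965), Abcg5 (1.28, adjusted p = 0.0728), Srebf1 (1.22, adjusted p = 0.128) and Lpl (1.20, adjusted p = 0.168), genes of fatty acid synthesis, sterol export, lipogenic control and lipoprotein hydrolysis, did not pass.

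**Figure D4:**
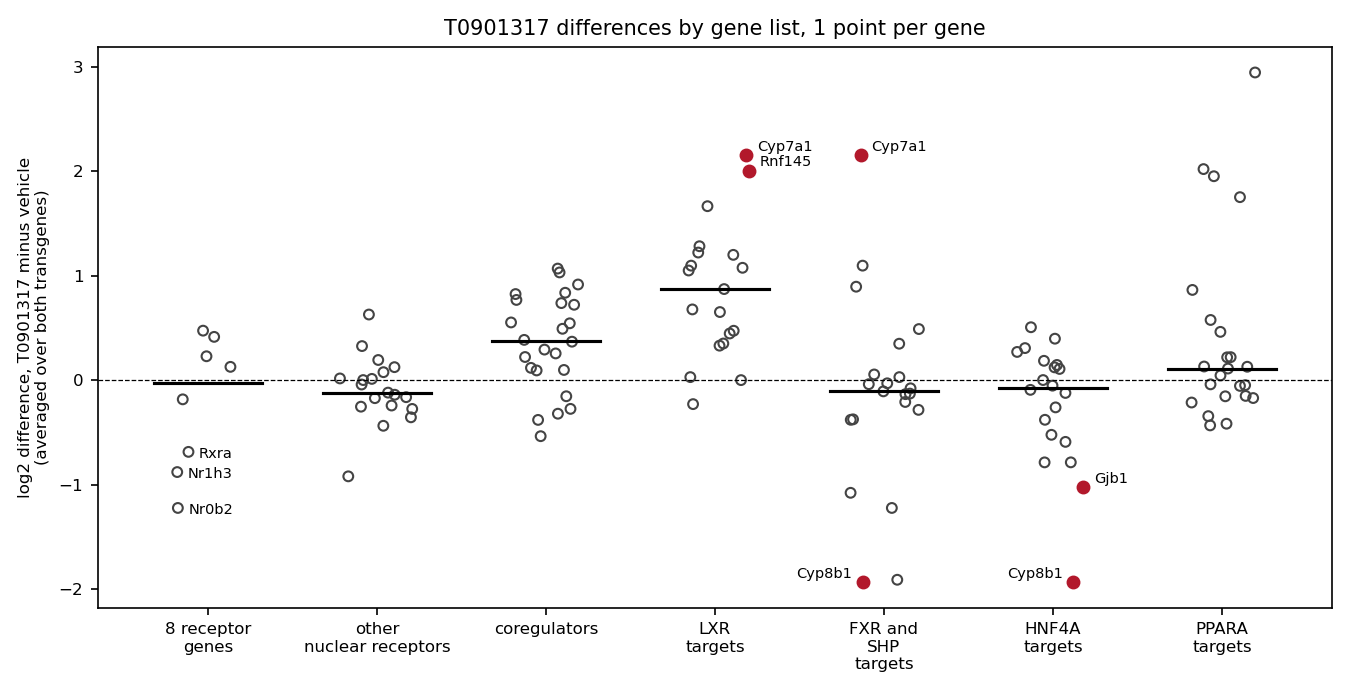
Log2 difference of T0901317 minus vehicle, averaged over both transgenes, for the brightest probe set of 8 receptor genes and for tested genes of 6 lists, with filled points for genes past the test, open points for the rest and a line at the median. The receptor points run from -1.22 (Nr0b2) to 0.47 (Nr5a2), and only the LXR target list, with a median of 0.87, has nearly all of its genes above 0. The lists were chosen with earlier results of these data known.

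Other nuclear receptors gave no call either. Of 39 other nuclear receptor genes listed, 34 had a probe set and 19 passed the filter, and 0 were called with T0901317 (8 higher, 11 lower, median -0.12). Nr1i3, the constitutive androstane receptor of drug metabolism, had 131 and 98.7 in LXRα T0901317 and 153 and 84.5 in GFP T0901317 livers, against 204 and 177 in LXRα vehicle and 225 and 264 in GFP vehicle livers. The treatments did not overlap (-0.92, SE 0.23, limma adjusted p = 0.105). The clock repressor Nr1d2 (0.63), Nr4a1 (-0.44) and Pparg (-0.35) came next and overlapped.

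Coregulators, the proteins through which receptors act on chromatin, gave no call. Of 30 listed, 24 were tested, 19 were higher and 5 lower with T0901317 (median 0.38), and 0 were called, with 10 higher and 1 lower at an unadjusted p under 0.05, where 12.7% of all probe sets were higher and 10.5% lower. Sin3a, a corepressor scaffold, had 37.0 and 53.4 in LXRα T0901317 and 34.3 and 48.8 in GFP T0901317 livers, against 27.3 and 29.4 in LXRα vehicle and 18.7 and 17.3 in GFP vehicle livers (0.92, SE 0.17, limma adjusted p = 0.0716). The coactivators Ppargc1b (1.07, adjusted p = 0.144) and Crebbp (1.03, adjusted p = 0.0842) and the deacetylase Sirt1 (0.84, adjusted p = 0.111) did not pass either. Crebbp was at 0.12 in LXRα livers and 1.95 in GFP livers (interaction -1.83, SE 0.45, adjusted p = 0.957). Of 17 other liver transcription factors tested, 13 were higher (median 0.45) and 0 were called. Besides Srebf1, the largest differences there were those of Hlf (1.57, SE 0.50, adjusted p = 0.151), Mlxipl (0.65) and Foxa2 (0.58).

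Markers of liver cells were set beside the receptors. Hepatocyte markers were lower with T0901317 for 7 of 10 genes (median -0.12, 0 called). In LXRα livers 8 of 10 were lower (median -0.19), with summed intensities of 106504 to 123572 against 131901 to 140138 with vehicle. In GFP livers 6 were lower and 4 higher (median -0.05), with sums of 115569 to 117070 against 114444 to 119848. Stellate cell and matrix markers were higher with T0901317 for 14 of 15 genes (median 0.72, 0 called), with summed intensities of 4554 to 4665 in LXRα T0901317, 1485 to 1816 in LXRα vehicle, 3390 to 4850 in GFP T0901317 and 2703 to 4316 in GFP vehicle livers. By transgene, 14 of these 15 were higher in LXRα livers (median 1.27), and 7 were higher and 8 lower in GFP livers (median -0.04). Endothelial markers were higher for 10 of 14 (median 0.25), with Lyve1, a hyaluronan receptor of sinusoids, called (2.05, limma adjusted p = 0.0489). The Lyve1 call was lost with the β-actin ratio in the fit (limma adjusted p = 0.114) and without any one of the 7 arrays other than LXRα T0901317 replicate 1 (0.0782 to 0.181). Macrophage markers were higher for 11 of 16 when averaged (median 0.17), with 13 of 16 higher in LXRα livers (median 0.89) and 4 of 16 higher in GFP livers (median -0.51). Markers of cholangiocytes (3 tested), lymphocytes (7) and erythroid cells (4) had 0 calls. The part of these cells in the receptor differences was not tested.

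The LXRα transgene without agonist set apart no member. In LXRα vehicle against GFP vehicle livers, limma called 0 of the 14 probe sets, against 0.00631% of all. At an unadjusted p under 0.05 there was 1, against 5.15% of all. For 6 of the 14 both LXRα arrays lay above both GFP arrays, against 30.9% of all probe sets, and for 0 below, against 13.5%. In all 12 were higher and 2 lower, with a median of 0.30 against 0.05 over all. The 1 at an unadjusted p under 0.05 was Hnf4a 1427001_s_at, at 0.68 (SE 0.27, adjusted p = 0.942). Next by size among the brightest probe sets came Nr0b2 at 0.59 (SE 0.32, adjusted p = 0.963), Rxra at 0.49 (SE 0.38) and Nr1h3 at 0.44 (SE 0.45), and Nr1h4 (-0.05) and Ppara (0.05) were nearest to 0, with 95% intervals of -0.82 to 0.72 and -0.79 to 0.88.

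The markers of other cells were compared between the same groups. Summed macrophage markers gave 12133 and 5001 in LXRα vehicle livers and 17342 and 18185 in GFP vehicle livers, with 16 of 16 genes lower (median -1.17) and Timd4, Itgam and Cd163, 3 of the 19 listed, not tested. Stellate and matrix markers were lower for 14 of 15. Hepatocyte markers were higher for 8 of 10 (median 0.26), with sums of 131901 to 140138 in LXRα vehicle and 114444 to 119848 in GFP vehicle livers. The part of these shifts in the receptor values was not tested. Among the target lists, 18 of 20 HNF4α targets (median 0.27) and 16 of 21 FXR and SHP targets (median 0.44) were higher, and 16 of 23 PPARα targets were lower (median -0.30), with 0 called in each. LXR targets were divided, with 9 higher and 10 lower of 19 tested (median -0.11) and 0 called. Of the LXR targets, Cyp7a1 differed by 1.63 (SE 0.30, limma adjusted p = 0.58) and Abcg8 by 1.35 (SE 0.28, adjusted p = 0.58). Pltp went the other way at -1.42 (SE 0.31, adjusted p = 0.597), as did Lpl at -1.41 (SE 0.58, adjusted p = 0.953). Slc22a7 differed by 3.00 (SE 0.61, adjusted p = 0.58), Cyp4a14 by -4.01 (SE 1.13, adjusted p = 0.774) and Cd36 by -2.05 (SE 0.75, adjusted p = 0.884).

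Each treatment comparison within a transgene shares its vehicle arrays with the transgene comparison, so their values are given side by side and not correlated. In GFP livers 0 of 14 member probe sets were called, against 0% of all, and 5 were at an unadjusted p under 0.05, against 13.2%. Both GFP T0901317 arrays lay above both GFP vehicle arrays for 4, against 23.2% of all, and below them for 6, against 35.2%. In LXRα livers 0 were called, against 0.0253%, and 3 were at an unadjusted p under 0.05, also against 13.2%. The arrays did not overlap for 2 that were higher, against 20% of all, and for 6 that were lower, against 28.5%. With LXRα T0901317 against GFP T0901317, limma called 0 of the 14, against 0% of all, and 0 reached an unadjusted p under 0.05, against 2.24% of all probe sets. LXRα averaged over both treatments gave 0 calls, against 0.00631%, and 0 at an unadjusted p under 0.05, against 2.66%. The interaction gave 0 calls, against 0.00631%, and 0 at an unadjusted p under 0.05, against 4.77%, with values between -0.95 for Rxra 1454773_at and 1.16 for Hnf4a 1450447_at (SE 1.09). The standard errors of the interaction, 0.29 to 1.48 on the log2 scale, leave wide intervals, and no member was shown to respond differently to T0901317 in the presence of the LXRα transgene.

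The genes whose log2 intensities followed Nr0b2 most closely over the 8 arrays were Msrb1 (Pearson r = 0.988), Glo1 (0.962), Fam149b (0.957) and Slco1b2 (0.954), out of 9358 genes. Msrb1, a methionine sulfoxide reductase, had 1518 and 1217 in LXRα T0901317, 2939 and 2452 in LXRα vehicle, 1431 and 1329 in GFP T0901317 and 2061 and 2256 in GFP vehicle livers, the same order of groups as Nr0b2 in the vehicle arms. For Nr1h3 the closest were Mob2 (0.966), Upb1 (0.966), Cpn1 (0.958) and Lap3 (0.954). All 4 were lowest on LXRα T0901317 replicate 2, as was Nr1h3. Lap3, an aminopeptidase, had 928 and 318 in LXRα T0901317, 1126 and 1012 in LXRα vehicle, 474 and 626 in GFP T0901317 and 848 and 837 in GFP vehicle livers. These correlations share arrays, treatment and the quality signs above and are descriptions only.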

How the data were processed

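Liver RNA of 8 mice was measured on Affymetrix arrays, 2 per group, with groups taken from the labels. The table deposited by the authors holds 1 intensity per probe set and array. Its values are positive and linear as read from their range, and no source used here names the summarising tool or the scaling. Array medians lay between 21.0 and 23.2, arrays of a group correlated with r of 0.968 to 0.986 on the log2 scale, and precision is limited by the number of arrays.

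Of 22690 probe sets, 64 controls were left out, and 20380 of the rest had 1 symbol, 691 several and 1555 none. Symbols were updated through RefSeq for 20351. Values under 7.50 (the 20th percentile) were set to it. All values were log2-transformed and filtered at the 30th percentile of mean log2 value, which left 15838 probe sets of 9359 genes. limma 3.58.1 (R 4.3.3) fitted 4 group means on all 8 arrays (eBayes with intensity trend, 4 residual and 2.93 prior degrees of freedom), with Benjamini-Hochberg adjustment over all probe sets. A call is an adjusted p under 0.05, and SE is the moderated standard error. The steps were tested on simulated data. Control ratios and probe set ratios were tested by exact permutation.

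The genes named are all member probe sets, list genes that passed (otherwise the 4 largest differences averaged for T0901317 or for LXRα vehicle minus GFP vehicle, of which some are left out), and the 4 genes most correlated with Nr1h3 and Nr0b2. A gene is given by its brightest tested probe set. Members, lists and tests were chosen with earlier results of these data known. Alternatives were quantile normalization, median centring, a lower floor of 4.59 (the 5th percentile), an offset of 16, a stricter filter (the 50th percentile) or none, no trend, a replicate block, the compared groups alone, the β-actin ratio as a covariate, leaving out the 3 T0901317 arrays of higher ratio, and leaving out each array. With 1 array of a pair left out, the fit gives the remaining one the spread of the other groups. Promoters came from RefSeq (GRCm38.p6).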

Additional observations from a re-analysis of the deposited data

How the results depend on the processing

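The 14 member probe sets had 0 calls under every alternative that kept all 8 arrays, under the compared groups alone and without the 3 higher-ratio arrays. With single arrays left out they had 0 to 5 calls for T0901317 averaged over transgenes and 0 to 2 within LXRα livers, both highest without LXRα T0901317 replicate 1, and 0 in the other 5 comparisons. As LXRα T0901317 replicate 1 is the lower-ratio array, leaving it out kept only the 3 T0901317 arrays of higher ratio. The Nr0b2 difference kept its sign throughout. Counts over all probe sets moved more. For T0901317 averaged over transgenes the count of 90 became 32 after quantile normalization (22 higher, 10 lower), 15 without a filter (7 higher, 8 lower), 17 with the replicate block (11 higher, 6 lower) and 4 with the β-actin covariate (3 higher, 1 lower), and 0 to 1506 with single arrays left out. In LXRα livers the T0901317 count of 4 became 7 (quantile), 2 (offset), 14 (no filter), 2 (no trend), 0 (compared groups alone) and 9 (without the 3 higher-ratio arrays), and 0 to 474 with single arrays left out. In GFP livers the count of 0 became 2 without a filter, and 0 to 43 with single arrays left out. For LXRα vehicle minus GFP vehicle the count of 1 became 11 without a filter and 0 with the compared groups alone or without the 3 higher-ratio arrays, and 1 to 32 with single arrays left out. For LXRα averaged over treatments the count of 1 became 0 with the 5th-percentile floor, 7 without a filter and 2 with the β-actin covariate, and 0 to 31 with single arrays left out. For LXRα T0901317 minus GFP T0901317 the count of 0 became 1 without a filter or with the covariate, and 0 to 5 with single arrays left out. For the interaction the count of 1 became 0 (quantile, 5th-percentile floor, replicate block), 8 (no filter) and 2 (no trend, covariate), and 0 to 24 with single arrays left out. Some of these settings also change the number of arrays or of probe sets in the fit, and the cause of the moves was not tested.

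Of 427 values of 43 gene and comparison pairs under alternatives that leave out no single array, 13 turned sign. Averaged over transgenes, Rxrb was at -0.0095 (quantile), Hnf4a 1427000_at at 0.0054 (median centring) and 0.30 (β-actin covariate), Hnf4a 1421983_s_at at 0.017 (covariate) and Nr5a2 1449706_s_at at -0.030 (quantile) and -0.010 (covariate). In GFP livers Rxra was at 0.37 (covariate). In LXRα livers Nr5a2 was at -0.081 (quantile), -0.24 (covariate) and -0.19 (without the 3 higher-ratio arrays), Ppara at 0.022 (median centring) and Rxrb at -0.082 (quantile) and -0.024 (covariate). With single arrays left out, 14 of 344 values turned sign: Ppara (-0.43 to 0.065) and Hnf4a 1427000_at (-0.27 to 0.13) averaged over transgenes, Nr1h4 (-0.17 to 0.074) and Ppara (-0.15 to 0.25) for LXRα vehicle minus GFP vehicle, Ppara (-0.79 to 0.20) and Rxrb (-0.077 to 0.43) in GFP livers, and Hnf4a (-0.38 to 0.13), Nr5a2 (-0.19 to 0.31) and Ppara (-0.18 to 0.037) in LXRα livers. The calls of Cyp7a1, Cyp8b1, Gjb1 and Lyve1 were lost with the replicate block (limma adjusted p = 0.0571, 0.0685, 0.0733 and 0.0658) and that of Rnf145 was kept (0.043). Same-numbered arrays deviated together with correlations of -0.138 to 0.247 over the pairs of groups. With so few arrays per group, these correlations cannot decide whether the replicate numbers pair samples. The scalings moved the median of all probe sets with T0901317 by under 0.1 on the log2 scale.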
